A study of Mus musculus with 2 samples.

Results

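The miR-200 family, miR-203 and miR-205 are miRNAs of epithelial cells, and 9 of their mature forms were followed in small RNA of serum extracellular vesicles (EVs), the membrane particles that cells shed into blood. The 9 were taken by name, not by their values, from the 1847 mature miRNAs listed in both deposited tables, though with earlier results of these data known. The study compared iFIRKO mice, in which tamoxifen deletes the insulin receptor in adipocytes, with control mice, to learn how EV-miRNAs change when mature adipocytes are lost and the adipose tissue regenerates. The iFIRKO mice carried Adipoq-CreERT2, a tamoxifen-inducible Cre driven by the adiponectin promoter, with Insr flox/flox. The control mice are labelled WT, whereas the study's methods describe them as mice with the floxed alleles and no Cre. All mice were males aged 7 weeks that received tamoxifen at 100 mg/kg on 5 days in a row, with blood taken on day 3 after dosing ended, so the agent was common to both groups. Each group was 1 library prepared from pooled serum of several mice, and no spread between animals or libraries could be estimated.

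In the tables each value was a whole count divided by a constant of its library, and these constants, 3817902 for the control library and 2233498 for the iFIRKO library, were taken as the depths. Levels are given as recovered counts and as counts per 1000000 (CPM), and 95% intervals cover counting error only, since merging of reads by molecular identifiers is not stated. The deletion of the insulin receptor leaves no trace in a table of miRNAs, so it offers no check of the labels. The study's own account of these libraries gives reason to doubt which table belongs to which group, and this could not be settled from the tables. Every direction follows the labels as deposited, and an exchange of the labels would invert every ratio of iFIRKO to control while leaving the levels within a table and the size of each fold as they are. A change in the share of a library cannot tell fewer vesicles of one origin from less of the miRNA in each vesicle.

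A miRNA hairpin is cut into a 5p and a 3p arm, 1 of which is usually kept by an Argonaute protein and pairs with target mRNAs through its seed, bases 2 to 8. In epithelia the miR-200 family represses the transcription factors Zeb1 and Zeb2, which in turn repress the miR-200 genes, and the balance between them helps to hold cells in the epithelial or the mesenchymal state. miR-203 is known from stratified epithelia such as the epidermis, where it limits the proliferation of progenitor cells through p63. miR-205 is also a miRNA of skin and glandular epithelia and shares Zeb targets with the miR-200 family.

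The mature sequences below, from RefSeq (GRCm38.p6), are shown because the seed divides the family into groups that cross its genomic clusters. They are the more abundant arm of each of the 7 hairpins, written 5′ to 3′ with the seed in capitals.
mmu-miR-200b-3p: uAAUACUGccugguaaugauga
mmu-miR-200c-3p: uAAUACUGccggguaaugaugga
mmu-miR-429-3p: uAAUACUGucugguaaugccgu
mmu-miR-200a-3p: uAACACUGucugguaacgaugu
mmu-miR-141-3p: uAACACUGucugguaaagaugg
mmu-miR-203-3p: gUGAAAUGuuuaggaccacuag
mmu-miR-205-5p: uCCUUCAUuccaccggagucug

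mmu-miR-200b-3p, mmu-miR-200c-3p and mmu-miR-429-3p share the seed AAUACUG, and mmu-miR-200a-3p and mmu-miR-141-3p share AACACUG. The seeds differ by U4C, counted from the 5′ end with the base of miR-200b-3p first. None of the 4 seeds occurred at bases 2 to 8 of another RefSeq mature mouse miRNA among the 1738 searched. The most alike sequences were miR-200a-3p and miR-141-3p, which differed by C17A and U22G, and miR-200b-3p and miR-200c-3p, which differed by U11G and A22G over the 22 bases they have in common. How the authors assigned reads that fit more than 1 of these sequences is not stated, so the split between members of a pair is uncertain while their sum is less so.

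The other arms of the same hairpins were read as well, because the arms of a hairpin are made from 1 precursor and their ratio within a library needs no scaling between libraries. mmu-miR-200a-5p and mmu-miR-200b-5p are among the 9 members, and 5 further arms were in the tables. The arms of miR-203b, transcribed from the strand opposite Mir203, were not analysed here.
mmu-miR-200b-5p: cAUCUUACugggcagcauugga
mmu-miR-200a-5p: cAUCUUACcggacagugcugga
mmu-miR-429-5p: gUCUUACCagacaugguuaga
mmu-miR-200c-5p: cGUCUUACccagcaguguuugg
mmu-miR-141-5p: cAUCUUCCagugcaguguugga
mmu-miR-203-5p: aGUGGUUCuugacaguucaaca
mmu-miR-205-3p: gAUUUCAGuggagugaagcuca

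The Mir429 hairpin, whose arms differed most between the libraries, is shown whole, with both mature arms in capitals.
Mir429: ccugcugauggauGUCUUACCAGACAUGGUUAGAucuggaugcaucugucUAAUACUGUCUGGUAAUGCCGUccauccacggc

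In GRCm38 (mm10, the build named in the submitters' processing notes) the Mir429, Mir200a and Mir200b hairpins lie within 1846 bases on the minus strand of chromosome 4. Mir429 is at 156053905 to 156053987, in an exon of the noncoding transcript Gm13648 and an intron of Ttll10. Mir200a (156054896 to 156054985) and Mir200b (156055681 to 156055750) are in introns of both genes. Mir141 (124717914 to 124717985) and Mir200c (124718322 to 124718390) lie within 477 bases on the minus strand of chromosome 6, in an intron of the noncoding gene Gm15884, and Mir141 also overlaps part of the exon of Gm29008. Mir203 is intergenic on the plus strand of chromosome 12 (112130880 to 112130955). Mir205 is in an exon of the lincRNA 4631405K08Rik on the minus strand of chromosome 1 (193507463 to 193507530).

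By count, the major arms of the 7 hairpins ranked from 89 to 155 among the 1847 miRNAs of the control library and from 84 to 184 in the iFIRKO library, with miR-203-3p and miR-205-5p on top. miR-203-3p had 2571 counts (673 CPM) in the control library and 1645 counts (737 CPM) in the iFIRKO library. miR-205-5p had 2301 counts (603 CPM) and 1277 counts (572 CPM). Next came miR-141-3p, the highest of the miR-200 family, with 1478 counts (387 CPM) and 690 counts (309 CPM). These 3 were separated in both libraries by more than counting error.

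Below them, miR-200a-3p had 926 counts (243 CPM) in the control library and 530 counts (237 CPM) in the iFIRKO library. miR-429-3p had 794 counts (208 CPM) and 370 counts (166 CPM). miR-200c-3p had 697 counts (183 CPM) and 370 counts (166 CPM), and thus the same count as miR-429-3p in the iFIRKO library. miR-200b-3p was the lowest major arm with 690 counts (181 CPM) and 316 counts (141.5 CPM). The order was the same in both libraries apart from that tie. In the control library the interval of the ratio of miR-200c-3p to miR-200b-3p, 1.01 (95% interval 0.908 to 1.12), included 1, and every other pair of neighbours there differed by more than counting error. The 9 members together made up 2513 CPM of the control library and 2383 CPM of the iFIRKO library.

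**Figure D1:**
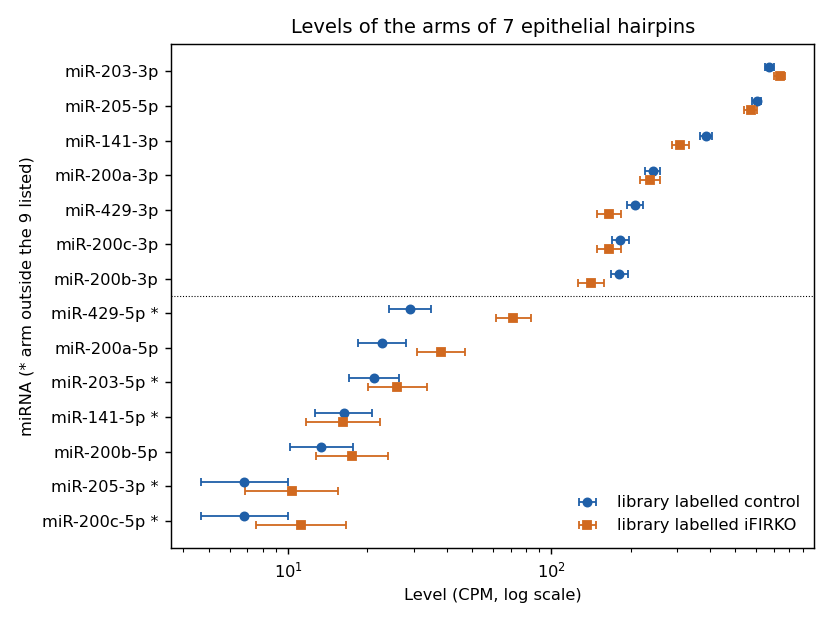
Levels of the 14 arms in CPM (log scale) in the library labelled control (circles) and the library labelled iFIRKO (squares), with 95% Wilson intervals for counting error. The 7 major arms lie above the dotted line, from 141.5 to 737 CPM, and the minor arms below it, from 6.81 to 71.6 CPM.

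To compare the libraries, the ratio of iFIRKO to control was taken on the deposited scale with the study's threshold of 1.5-fold. Of the 7 major arms, 6 had a ratio below 1 and none passed 1.5-fold in either direction. The lowest ratios were those of miR-200b-3p (0.783, 95% interval 0.683 to 0.896), miR-429-3p (0.797, 0.702 to 0.902) and miR-141-3p (0.798, 0.728 to 0.874), whose intervals lay below 1. The ratios of miR-200c-3p (0.907, 0.798 to 1.03), miR-205-5p (0.949, 0.885 to 1.02) and miR-200a-3p (0.978, 0.878 to 1.09) had intervals that included 1. miR-203-3p had the only ratio above 1 among the major arms, 1.09 (95% interval 1.03 to 1.16).

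With the labels as deposited, 66.3% of all 1847 miRNAs were over 1.5-fold higher and 3.03% over 1.5-fold lower in the iFIRKO library, with a median ratio of 1.84. That share fell with abundance, so the major arms were also read against the 74 miRNAs whose mean count lay within their own range, 503 to 2108. These 74 include the 7 major arms. Of the 74, 6.76% were over 1.5-fold higher and 9.46% over 1.5-fold lower, 37 had a ratio above 1 and 37 below, and the median ratio was 1.01. The 7 major arms account for 1 of those above 1 and 6 of those below. The median of the 7 major arms was 0.907. Among miRNAs within 2-fold of its own mean count, miR-200b-3p had a lower ratio than 95 of 107 and miR-429-3p than 79 of 96. miR-141-3p was below 48 of 68 and miR-203-3p below 18 of 57.

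**Figure D2:**
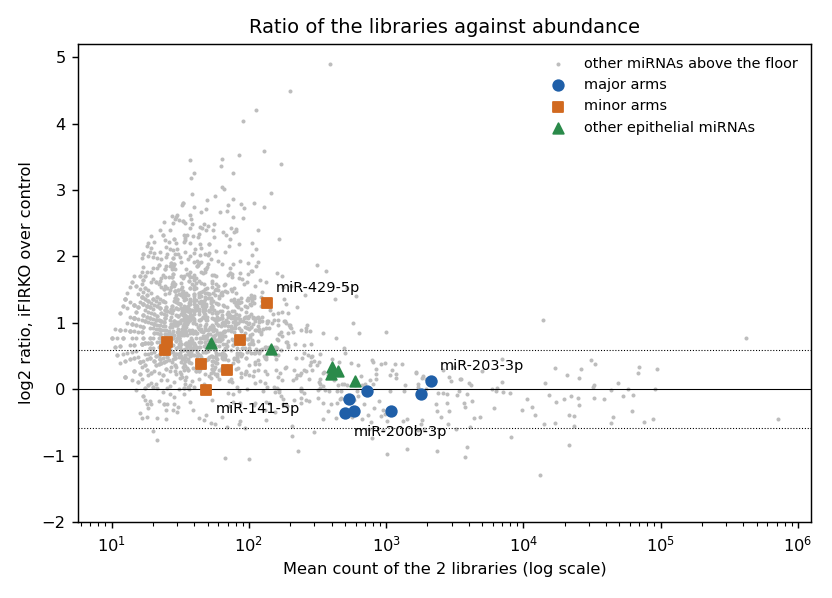
Log2 ratio (iFIRKO over control, as the libraries are labelled) against the mean count (log scale) for miRNAs above the floor, the lowest value of each table. The major arms (circles) lie near 0 and the minor arms (squares) mostly above it, as do the other epithelial miRNAs (triangles), and the dotted lines mark 1.5-fold.

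Among the 7 minor arms, 6 had a ratio above 1. miR-429-5p had 111 counts (29.1 CPM) in the control library and 160 counts (71.6 CPM) in the iFIRKO library, which gives a ratio of 2.46 (95% interval 1.92 to 3.17), while its partner miR-429-3p was below 1. miR-200a-5p had 87 counts (22.8 CPM) and 85 counts (38.1 CPM), its ratio was 1.67 (1.22 to 2.28), and it was the only one of the 9 members past 1.5-fold. These were the only arms past 1.5-fold whose interval excluded 1. A ratio past 1.5-fold was common at such counts, as set out below.

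The counts of miR-200c-5p were 26 and 25, giving a ratio of 1.64 (95% interval 0.911 to 2.96). Those of miR-205-3p were 26 and 23, giving 1.51 (0.824 to 2.76), and those of miR-200b-5p were 51 and 39, giving 1.31 (0.839 to 2.02). With so few counts these ratios cannot be told from 1. The same holds for miR-203-5p, at 81 and 58 counts with a ratio of 1.22 (0.858 to 1.74), and for miR-141-5p, at 62 and 36 counts with a ratio of 0.993 (0.639 to 1.52).

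Past 1.5-fold and higher were 4 of the 7 minor arms, against 77.3% of the 1059 miRNAs with a mean count in their range, 24.5 to 135.5, the 7 included. The median ratio was 1.51 for the minor arms and 1.999 for those 1059 miRNAs. Against miRNAs within 2-fold of its own mean count, miR-141-5p had a lower ratio than 920 of 950 and miR-203-5p than 690 of 762. miR-200a-5p was below 413 of 634, whereas miR-429-5p was below 85 of 384.

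The arms of each hairpin were then set against each other. In the control library the major arm exceeded the minor arm by 7.15-fold for Mir429, 10.6-fold for Mir200a, 13.5-fold for Mir200b, 23.8-fold for Mir141, 26.8-fold for Mir200c, 31.7-fold for Mir203 and 88.5-fold for Mir205. The 3 hairpins of the chromosome 4 cluster thus had the largest share of minor arm. In the iFIRKO library the minor arm took a larger share in all 7 hairpins.

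For Mir429 the minor arm made up 12.3% and 30.2% of the counts of both arms, a 3.09-fold gain of miR-429-5p over miR-429-3p (exact 95% interval 2.34 to 4.10). For Mir200a it was 8.59% and 13.8%, a 1.71-fold gain (1.23 to 2.37), and for Mir200b 6.88% and 11.0%, a 1.67-fold gain (1.05 to 2.64). These 3 hairpins, all of the chromosome 4 cluster, were the ones whose interval excluded 1, without correction for the number of hairpins. The gains of Mir200c (1.81-fold, 0.987 to 3.31), Mir205 (1.59-fold, 0.865 to 2.92), Mir141 (1.24-fold, 0.793 to 1.93) and Mir203 (1.12-fold, 0.780 to 1.60) were within counting error. The fold of Mir200c was larger than those of Mir200a and Mir200b, but its minor arm had only 26 and 25 counts. A difference in arm shift between the clusters was not tested.

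A gain of the minor arm was common in these libraries. It was seen in 56.1% of the 610 hairpins with both arms above the floor, with a median fold of 1.10. Of the 29 hairpins, the 7 included, whose major and minor arms both fell within the ranges of mean count given above, 86.2% showed it, with a median fold of 1.62. With the 7 left out, 18 of 22 showed it, with a median fold of 1.57, against 1.67 for the 7. The direction of the 7 is therefore near the background at this abundance. The folds of Mir200a (1.71) and Mir200b (1.67) also lay near the median of those 22. The fold of Mir429 was exceeded by 2 of the other 28 of these hairpins and by 18 of the other 609. The ratio of the libraries fell with abundance over the whole tables, and the part of abundance in the arm shift of Mir429 was not tested.

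**Figure D3:**
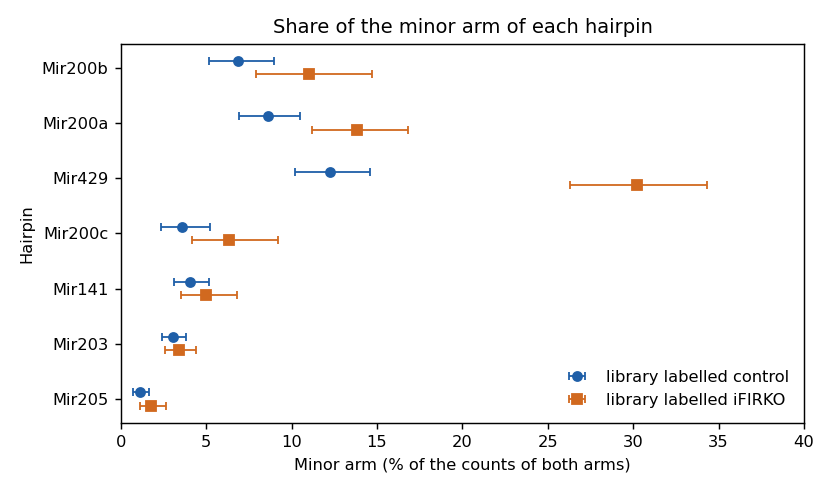
Share of the minor arm in the counts of both arms of each hairpin, in percent, for the library labelled control (circles) and the library labelled iFIRKO (squares), with exact 95% intervals. The intervals of the libraries are far apart for Mir429, at 12.3% and 30.2%, and overlap for Mir200b, Mir200c, Mir141, Mir203 and Mir205.

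Both genomic clusters had a ratio below 1. The 3p arms of the chromosome 4 cluster summed to 2410 counts (631 CPM) in the control library and 1216 counts (544 CPM) in the iFIRKO library, with a ratio of 0.863 (95% interval 0.804 to 0.924). Those of the chromosome 6 cluster summed to 2175 counts (570 CPM) and 1060 counts (475 CPM), with a ratio of 0.833 (0.773 to 0.897). The ratio of the first cluster to the second was 1.11 and 1.15, a change of 1.04-fold whose interval, 0.935 to 1.15, included 1.

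Grouped by seed, the miRNAs with AAUACUG summed to 2181 and 1056 counts with a ratio of 0.828 (95% interval 0.768 to 0.891), and those with AACACUG to 2404 and 1220 counts with a ratio of 0.868 (0.809 to 0.930). The change of the first group over the second was 0.954-fold (0.862 to 1.06), so no difference between seed groups was detectable at this depth. Of the 10 pairs among the 5 family members, the interval of the change excluded 1 for 3, without correction for the number of pairs. In all 3 miR-200a-3p was the relatively higher one, by 1.25-fold over miR-200b-3p (1.05 to 1.49), 1.23-fold over miR-429-3p (1.04 to 1.45) and 1.23-fold over miR-141-3p (1.06 to 1.41).

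The 5 family members summed to 4585 counts (1201 CPM) in the control library and 2276 counts (1019 CPM) in the iFIRKO library, which is a ratio of 0.849 (95% interval 0.807 to 0.893). Relative to this sum miR-203-3p was 1.29-fold higher in the iFIRKO library (1.19 to 1.40) and miR-205-5p 1.12-fold higher (1.03 to 1.22). Between themselves, miR-203-3p gained 1.15-fold on miR-205-5p (1.05 to 1.27). These comparisons within a library need no scaling, but they compare 2 libraries and have no replicate check.

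Other miRNAs of epithelia were examined to place the family. All 6 of a list of epithelial miRNAs had a ratio above 1 on the deposited scale, with a median of 1.24, as had 1627 of all 1847 miRNAs, whose median was 1.84. They were miR-182-5p (1.22), miR-183-5p (1.26) and miR-96-5p (1.61), which form 1 cluster known from sensory epithelia, miR-375-3p (1.09) of endocrine and mucosal cells, miR-31-5p (1.17) of skin, and miR-184-3p (1.52) of cornea and lens. Of these, miR-96-5p and miR-184-3p passed 1.5-fold, where 66.3% of all miRNAs did. They had the lowest counts of the list, 54 and 51 for miR-96-5p and 153 and 136 for miR-184-3p. The share past 1.5-fold fell with abundance, and no share matched to the list in abundance was taken. miR-375-3p, with 725 and 464 counts, had nearly the same control count as miR-200b-3p and miR-200c-3p. Summed over the list, levels were 625 and 755 CPM, so that the miR-200 family sum was 1.92 times the list in the control library and 1.35 times in the iFIRKO library, a change of 0.703-fold (exact 95% interval 0.648 to 0.762). The list had mean counts of 52.5 to 594.5, mostly lower than those of the family, and the part of abundance in this change was not tested.

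Against miR-192-5p, miR-194-5p and miR-215-5p, miRNAs of gut and liver epithelium with ratios of 1.36, 1.37 and 1.06, the family sum changed by 0.628-fold (0.596 to 0.662). Against miR-122-5p, the miRNA of hepatocytes, which had a ratio of 1.71, it changed by 0.497-fold (0.473 to 0.523). Against 3 leukocyte miRNAs (miR-142a-3p, miR-150-5p and miR-223-3p, with ratios from 0.799 to 0.938) the change was 0.982-fold, and its interval, 0.933 to 1.03, included 1. Against the erythroid miR-451a, miR-144-3p and miR-486a-5p, with ratios from 0.409 to 0.700, the family sum changed by 1.51-fold (1.43 to 1.59). The direction of each of these changes, and of that against the epithelial list, depends on the labels doubted above. Of these 4 comparisons, the change was nearest to 1 against the leukocyte list. The leukocyte miRNAs had mean counts of 11452 to 63112 and miR-122-5p one of 417514, against 503 to 1084 for the family. The part of abundance in these changes was not tested.

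**Figure D4:**
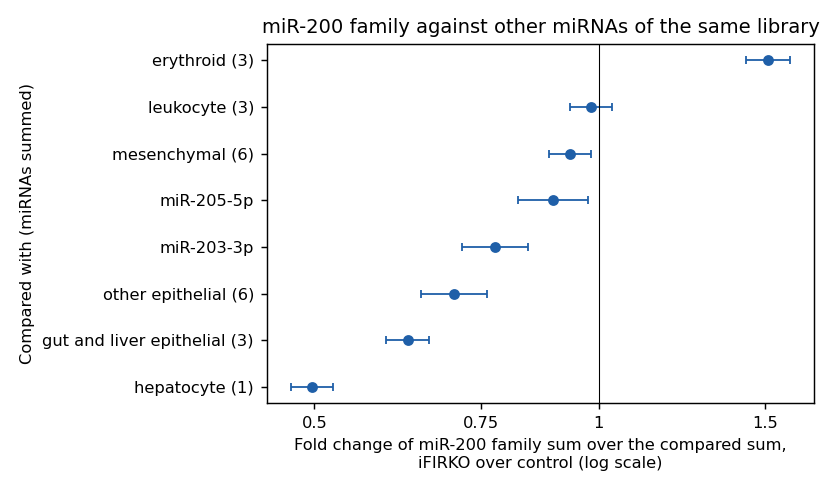
Fold change, from the library labelled control to the library labelled iFIRKO, of the summed 5 miR-200 family arms over the sum of each compared list or miRNA (log scale), with exact 95% intervals and the number of miRNAs in parentheses. The fold is lowest against miR-122-5p (0.497) and highest against the erythroid list (1.51), and the interval against the leukocyte list includes 1.

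The direction of single miRNAs depended on how the libraries were scaled. With miR-148a-3p, the study's reference, which had 24524 and 16705 counts and a ratio of 1.16, all 7 major arms were below 1, from 0.672 to 0.939, and miR-429-5p was the only minor arm past 1.5-fold (2.12). With that scaling 55 of the 74 miRNAs in the range of the major arms, the 7 included, were below 1. Of the 1059 miRNAs in the range of the minor arms, 666 were over 1.5-fold higher. With the median of ratios, miR-200b-3p (0.651), miR-429-3p (0.663) and miR-141-3p (0.664) passed 1.5-fold lower. They were among the 22 of the 74 miRNAs in the range of the major arms that did so. With TMM scaling, a trimmed mean that lowered every ratio by a factor of 1.81, 7 of the 9 members passed 1.5-fold lower and miR-429-5p (1.36) was the only one of the 14 arms above 1. Of the 74 miRNAs in the range of the major arms, 59 were then over 1.5-fold lower, and these included the 7 members, which are the 7 major arms.

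**Figure D5:**
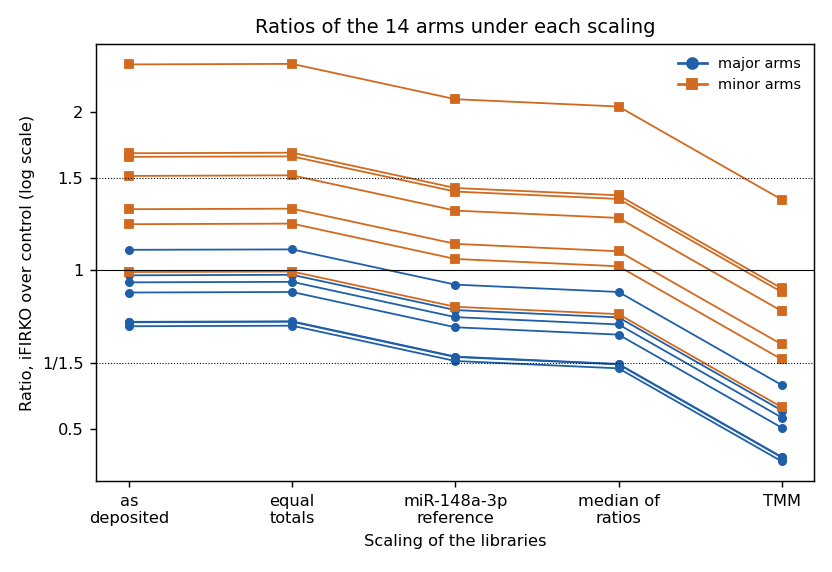
Ratio, iFIRKO over control as labelled (log scale), for the 7 major arms (circles) and 7 minor arms (squares) under 5 scalings of the libraries, with dotted lines at 1.5-fold. A scaling moves all arms alike, and the major arms range from 0.783 to 1.09 as deposited and from 0.433 to 0.605 with TMM.

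Fisher's exact test (two-sided) was run on the recovered counts with Benjamini-Hochberg adjustment over the 1736 miRNAs that neither library held at its floor, and it called 65.3% of them at 0.05. Of the 1736, 1050 were called as higher and 84 as lower in the iFIRKO library. Of the 9 members, 5 were called, miR-203-3p and miR-200a-5p as higher and miR-141-3p, miR-200b-3p and miR-429-3p as lower there. Of the other 5 arms miR-429-5p was called, as higher. In a binomial test with library sizes scaled by TMM, 7 members were called, all of them lower, so that miR-203-3p turned to lower and miR-200a-5p lost its call. Over the 1736 miRNAs that test called 512, 307 of them lower. Both tests compare 2 libraries and not the genotypes.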

How the data were processed

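Small RNA of serum EVs was sequenced by the authors from QIAseq miRNA libraries on a NextSeq500 and analysed on the GeneGlobe Data Analysis Center. The build is mm10 per the labels, and the aligner, the miRNA annotation release and the use of molecular identifiers are not given in the sources used here. The deposited values are a normalized signal per miRNA, which sums to 99.3% and 99.1% of 1. In both libraries 100% of the values came within 0.2 of a whole count when multiplied by 1 constant (3817902 and 2233498). The lowest value stands at 1 count, for 76 and 35 miRNAs, and the next is at 10 counts, so the lowest was read as a floor. All 14 arms named lay above it.

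Ratios carry Clopper-Pearson intervals, levels Wilson intervals, and changes of a ratio between libraries exact conditional odds ratio intervals (scipy 1.17.1, Python 3.11.15). TMM factors came from edgeR 4.0.16 in R 4.3.3. Scripts were tested on simulated data. The text names the members, the other arms, miRNAs sharing a seed, the 3 nearest neighbours of the most abundant member, miR-148a-3p and the comparison lists. The members and lists were chosen with earlier results of these data known. The ranges of mean count used as background, the comparisons between sums and the change of arm ratios were chosen after the data were seen. Alternatives were the scalings, 1 CPM added, a 2-fold threshold, filters at mean counts of 10 and 100 and the count test.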

Additional observations from a re-analysis of the deposited data

How the results depend on the processing

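No paired analysis was possible because there was 1 library per group, and none could be left out. With the median of ratios, miR-148a-3p and TMM in that order, the median ratio of the 9 members (0.949 as deposited) was 0.789, 0.815 and 0.525. The chromosome 4 cluster sum was 0.717, 0.741 and 0.477, and the chromosome 6 cluster sum 0.693, 0.716 and 0.461. The sum with the seed AAUACUG was 0.688, 0.711 and 0.458, and that with AACACUG 0.721, 0.745 and 0.480. Equal totals, 1 CPM added and another floor left these within their counting intervals. TMM turned miR-200a-5p, the member past 1.5-fold as deposited, to 0.924, and miR-200b-5p to 0.723. miR-203-3p, at 1.09 as deposited, was 0.910, 0.939 and 0.605 under the 3 scalings. Of the other arms past 1.5-fold as deposited, TMM turned miR-200c-5p to 0.909 and miR-205-3p to 0.837. Of the 9 members 1 was over 1.5-fold higher as deposited. The number was 0 with the median of ratios, miR-148a-3p, TMM or a 2-fold threshold, while the count test called 2. A filter at a mean count of at least 100 removed that member, miR-200a-5p, with a mean count of 86, so its 0 is no check. Over 1.5-fold lower were 0 as deposited, 3 with the median of ratios and 7 with TMM, and the count test called 3. Of all 1847 miRNAs, 56 were over 1.5-fold lower as deposited, 113 with the median of ratios and 360 with TMM. Among the 74 in the range of the major arms, these numbers were 7, 22 and 59. Of all 1847, 1225 were over 1.5-fold higher as deposited, 957 with the median of ratios, 388 with TMM and 1001 when scaled to miR-148a-3p. Over the tables the count test called 1050 miRNAs higher and 84 lower, 205 and 307 with TMM library sizes, and 230 higher at a mean count of at least 100, where fewer miRNAs were tested. Adding 1 count to both arms left the arm ratios within their intervals. The minor arms rest on 23 to 160 counts, which leaves most of their intervals wide enough to include 1.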

Other observations

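The list of mesenchymal miRNAs was split. miR-143-3p (0.762, 95% interval 0.747 to 0.778), miR-145a-5p (0.726, 0.676 to 0.780) and miR-199a-5p (0.826, 0.743 to 0.917) had a ratio below 1, and miR-214-3p (1.39, 1.16 to 1.67), miR-199b-5p (1.37, 1.09 to 1.72) and miR-199a-3p, listed together with miR-199b-3p (1.03, 1.01 to 1.04), had one above 1. The miR-200 family sum changed by 0.932-fold over the sum of this list (exact 95% interval 0.885 to 0.982).

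The 3 miRNAs nearest to miR-203-3p in log2 CPM over both libraries were miR-130a-3p (695 and 762 CPM), miR-532-5p (724 and 792 CPM) and miR-99a-5p (618 and 686 CPM), at distances of 0.066, 0.15 and 0.16. With 2 libraries, likeness of level is all that such a distance measures.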
